A study of Mus musculus with 31 samples.

Results

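Ovaries of mouse embryos homozygous for Wv were compared with wild-type ovaries at 14 days post coitum (dpc), on 3 arrays per genotype, which are 6 of the 31 arrays of the series. The arrays were chosen by their labels for tissue, age and genotype. The others hold ovaries and testes of both genotypes at 12, 14 and 16 dpc, and all but 1 of them entered the fit, so that the 12 groups shared 1 estimate of the spread. Total RNA came from ovaries of females labelled Wv/Wv mutant or wild type, and was measured on 3′ expression arrays from biotinylated cRNA. Values are on the log2 scale, differences are Wv/Wv minus wild type, and ± after a difference is the standard error of the fit. The labels number the arrays of a group as biological replicates and do not say whether an array holds 1 embryo or a pool, and p-values therefore reflect how far these samples scatter, part of which may be technical. They give no strain, and every cell of a Wv/Wv embryo carries the mutation, not germ cells alone.

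Wv is a point mutation that weakens the kinase of Kit, the receptor for stem cell factor (Kitl). Primordial germ cells, blood progenitors, mast cells and melanoblasts need Kit for survival or spread, and fetal gonads of Wv/Wv embryos hold few germ cells. In a wild-type fetal ovary, germ cells divide for some days after they reach the gonad, then answer retinoic acid and BMP signals by expressing Stra8 and Meioc and enter meiotic prophase. There the chromosome axes and the synaptonemal complex are assembled, and DNA breaks made by Spo11 are repaired by recombination. The surrounding pregranulosa cells, marked by Foxl2 and Fst, do not enter meiosis. In RNA from a whole ovary, fewer cells of a type and less RNA per cell cannot be told apart.

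The promoters of 7 genes on which the results turn are shown first, to let the reader set the sequence beside the expression. They span 250 bases before to 50 bases after the start site, from RefSeq on GRCm38.p6, and are written 5′ to 3′ on the strand of the gene. Capitals mark 3 motifs searched on both strands, which do not overlap here. These are CACGTG, the E-box of Max-containing dimers, TCCCGC, a core of E2F sites, and CNCCTCAG, a motif known from promoters bound by STRA8. Sycp3 (lateral element of the synaptonemal complex) lies at chr10:88459337-88459636 on the plus strand, Mael (piRNA pathway) at chr1:166238695-166238994 on the minus strand and Ddx4 (germ cell RNA helicase) at chr13:112652261-112652560 on the minus strand. Tex12 (central element) lies at chr9:50561219-50561518 on the minus strand and Dazl (germ cell RNA-binding protein) at chr17:50293571-50293870 on the minus strand. Stra8 (meiotic entry) lies at chr6:34920698-34920997 on the plus strand and Bub1 (spindle checkpoint kinase) at chr2:127831810-127832109 on the minus strand.
Sycp3: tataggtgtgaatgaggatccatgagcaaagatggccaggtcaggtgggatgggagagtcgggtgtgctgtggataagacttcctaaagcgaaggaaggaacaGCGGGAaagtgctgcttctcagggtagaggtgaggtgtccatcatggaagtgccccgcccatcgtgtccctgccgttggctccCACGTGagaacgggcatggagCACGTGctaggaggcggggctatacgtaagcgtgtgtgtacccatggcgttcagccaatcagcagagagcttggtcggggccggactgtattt
Mael: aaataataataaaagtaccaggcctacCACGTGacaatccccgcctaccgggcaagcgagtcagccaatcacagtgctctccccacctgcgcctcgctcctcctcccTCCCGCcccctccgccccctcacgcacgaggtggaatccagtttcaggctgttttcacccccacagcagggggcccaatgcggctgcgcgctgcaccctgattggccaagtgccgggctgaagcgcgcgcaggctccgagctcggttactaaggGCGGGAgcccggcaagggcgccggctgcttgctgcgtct
Ddx4: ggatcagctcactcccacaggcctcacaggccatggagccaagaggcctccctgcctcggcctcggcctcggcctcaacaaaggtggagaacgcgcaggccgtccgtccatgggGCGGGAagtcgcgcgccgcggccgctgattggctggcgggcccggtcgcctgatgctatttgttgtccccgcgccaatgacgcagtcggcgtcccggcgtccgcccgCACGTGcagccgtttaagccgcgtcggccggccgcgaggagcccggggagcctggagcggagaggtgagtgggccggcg
Tex12: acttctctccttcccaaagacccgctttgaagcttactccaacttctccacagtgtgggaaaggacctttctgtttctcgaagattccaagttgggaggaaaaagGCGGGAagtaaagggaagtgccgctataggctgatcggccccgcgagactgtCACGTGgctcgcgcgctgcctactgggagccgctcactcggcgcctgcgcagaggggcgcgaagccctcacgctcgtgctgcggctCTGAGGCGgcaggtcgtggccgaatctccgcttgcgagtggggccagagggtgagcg
Dazl: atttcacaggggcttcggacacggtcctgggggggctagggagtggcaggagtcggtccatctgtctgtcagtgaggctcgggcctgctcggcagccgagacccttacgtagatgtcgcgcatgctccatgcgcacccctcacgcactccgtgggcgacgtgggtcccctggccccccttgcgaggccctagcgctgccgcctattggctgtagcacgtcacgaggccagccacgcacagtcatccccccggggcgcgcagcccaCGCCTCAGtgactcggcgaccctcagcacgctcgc
Stra8: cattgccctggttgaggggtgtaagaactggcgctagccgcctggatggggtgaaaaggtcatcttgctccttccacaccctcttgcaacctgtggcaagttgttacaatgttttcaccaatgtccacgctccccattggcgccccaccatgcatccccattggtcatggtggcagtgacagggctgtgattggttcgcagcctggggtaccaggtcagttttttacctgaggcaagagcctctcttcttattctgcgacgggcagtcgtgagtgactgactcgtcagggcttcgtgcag
Bub1: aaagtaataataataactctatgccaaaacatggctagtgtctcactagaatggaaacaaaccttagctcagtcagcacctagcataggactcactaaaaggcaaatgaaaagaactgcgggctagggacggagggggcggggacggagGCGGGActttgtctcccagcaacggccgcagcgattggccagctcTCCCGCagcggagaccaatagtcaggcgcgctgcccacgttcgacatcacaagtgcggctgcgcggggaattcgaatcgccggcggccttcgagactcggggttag

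The Sycp3 window holds CACGTG at 2 places and TCCCGC at 1, the Mael window CACGTG at 1 and TCCCGC at 2, and the Ddx4 window each of them once. The Tex12 window is the only one of the 7 with all 3 motifs. The Dazl window holds 1 CNCCTCAG, the Bub1 window TCCCGC at 2 places, and the Stra8 window none of the 3. A window was found for 14369 of 18194 genes tested, 1 window per gene. CACGTG was in 30.3% of the 76 windows of the germ cell RNA regulator, meiosis and piRNA lists, in 3.57% of the 28 windows of the S phase and M phase lists and in 9.04% of all windows. It was in 16.5% of the 127 windows of genes lower in Wv/Wv ovaries by at least 2, in 12.1% of the 2223 of all genes called lower and in 7.55% of the 808 of genes called higher. TCCCGC was in 53.9% of the germ cell and meiosis windows, 60.7% of the S phase and M phase windows and 29.8% of all windows. CNCCTCAG was in 21.1% of the germ cell and meiosis windows, 7.14% of the S phase and M phase windows and 9.05% of all windows. CCAAT, the box bound by NF-Y, was in 47.4%, 71.4% and 38.2% of the same 3 sets, and in 4 places of the Stra8 window. The median CpG count of the windows was 20.5, 24.5 and 17 in these sets and 23 in genes called lower, and its part in the shares was not tested. Among the germ cell and meiosis windows, 19 of 23 with CACGTG belonged to genes called lower (median log2 difference −3.10), against 40 of 53 without it (median −1.50). The contrast was not particular to CACGTG: for CNCCTCAG it was 13 of 16 (median −3.37) against 46 of 60 (median −1.48). For TCCCGC it was 33 of 41 (median −2.15) against 26 of 35 (median −1.69), and for CCAAT 27 of 36 (median −1.45) against 32 of 40 (median −1.79). A match is a description of these letters and not a binding site.

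The 31 arrays of the series were of 2 kinds, 21 with an SD over probe sets of 2.33 to 2.39 (wide-spread) and 10 with one of 1.77 to 2.18 (narrow-spread). The Gapdh control probe set at the 3′ end exceeded that at the 5′ end by 1.75 to 2.56 on wide-spread and by 0.51 to 1.12 on narrow-spread arrays. Wv/Wv arrays 2 and 3 and wild-type array 1 were narrow-spread, and Wv/Wv array 1 and wild-type arrays 2 and 3 wide-spread, so both genotypes held both kinds. The class was therefore a term of the fit, and each difference can also be read within a class, as 1 Wv/Wv array against 2 wild-type arrays in the wide class and 2 against 1 in the narrow class. Xist stood at 12.63, 12.17 and 12.04 on the Wv/Wv arrays and 11.61, 12.21 and 12.23 on the wild-type arrays. The Y-linked genes Kdm5d, Eif2s3y, Uty and Zfy2 were below 5.39 on all 6, which is the 40th percentile of all values and is used below as the limit for low signal. Foxl2 (9.58, 9.52 and 9.57 in Wv/Wv, 9.87, 9.34 and 9.47 in wild type) and Fst (11.87, 11.21 and 11.28 in Wv/Wv, 10.95, 11.38 and 11.59 in wild type) were high on all 6 arrays, while the Sertoli genes Sox9 and Amh lay between 5.19 and 7.32, and 3 of 16 Sertoli genes were under the limit on all 6. Since Wv is a point mutation, the Kit transcript does not check the genotype labels.

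The largest falls in Wv/Wv ovaries were of germ cell and meiosis transcripts, led by Dazl, Stk31, Mael, Ddx4 and Sycp3, and no transcript rose as far. Of 18194 genes 3743 were called at an adjusted p below 0.05 by limma (20.6%), 2674 lower (14.7%) and 1069 higher (5.88%). Of the lower genes 725 changed by at least 1 on the log2 scale, 160 by at least 2, 81 by at least 3 and 14 by at least 5, and of the higher genes 41 changed by at least 1 and 1 by at least 2. The median log2 difference was −0.72 over genes called lower, 0.53 over genes called higher and 0.019 over all genes. Within each array class taken alone, 2666 of the 2674 genes were lower and 1043 of the 1069 were higher. The genes were called on the same 6 arrays with the class in the fit, so this agreement largely follows from the selection and is no separate check. On 1566 of the lower genes and 421 of the higher genes all 3 Wv/Wv arrays lay on one side of all 3 wild-type arrays, which over all genes held for 10.9% downward and 5.78% upward.

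The count depends on the class term. Without it 742 genes were lower and 53 higher (4.08% and 0.291% of all genes), all of them among the 3743. The split between directions depends on the scaling. It was 2420 lower and 2135 higher with cyclic loess, and 2330 and 2411 with quantile normalization. With each array centred on 13 housekeeping genes it was 1991 and 3273, and the median of all genes moved to 0.18. Hprt, 1 of the 13, was itself called lower (−1.21 ± 0.15), and its part in this shift was not tested.

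**Figure D1:**
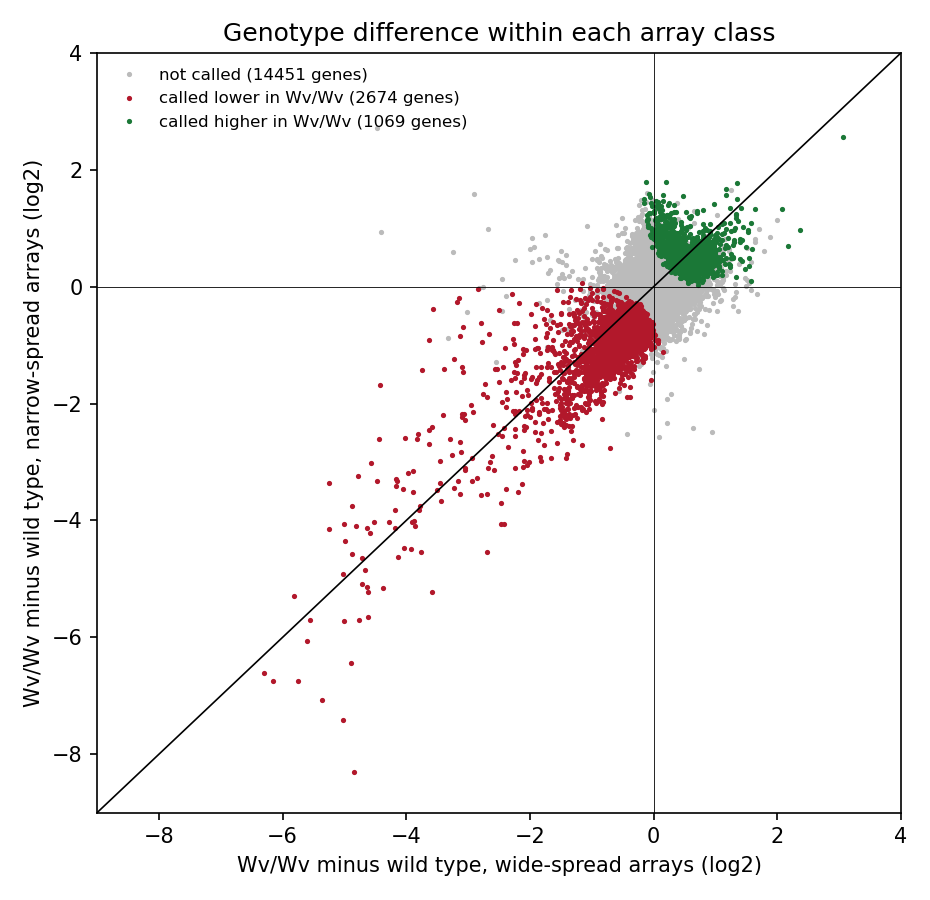
Wv/Wv minus wild type in ovaries at 14 dpc, in log2 units, for 18194 genes: the wide-spread arrays on the x axis (1 Wv/Wv and 2 wild-type arrays) and the narrow-spread arrays on the y axis (2 Wv/Wv and 1 wild-type array). Of the 2674 genes called lower (red) 2666 are below 0 on both axes, and of the 1069 called higher (green) 1043 are above 0 on both. The genes were called on these same arrays, so this is no separate check. The line marks equal differences.

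Several germ cell RNA regulators were among the transcripts with the largest falls. Dazl, which licenses germ cells for sexual development, had 7.54, 4.51 and 4.43 log2 units on Wv/Wv arrays 1, 2 and 3, against 12.77, 12.52 and 12.27 in wild type. It was at least 85.3-fold lower, where values under the limit for low signal were set to that limit, and fell by 6.66 ± 0.52 on the log2 scale in the fit (SE, limma adjusted p = 3.38e-09). Wv/Wv array 1 stood well above arrays 2 and 3 and still far under wild type. Ddx4 had the same order, with 6.46, 3.28 and 3.13 in Wv/Wv against 10.62, 11.66 and 11.32 in wild type, and was at least 43.9-fold lower (limma adjusted p = 8.95e-10). Stk31, a Tudor-domain protein of germ cells, had 4.48, 2.97 and 2.85 in Wv/Wv against 9.65, 10.97 and 10.29 in wild type, at least 30.2-fold lower. Of 17 measured members of this list 12 fell and 0 rose, against 14.7% of all genes lower, and their median log2 difference was −2.16. Dppa5a (−5.45 ± 0.62), the translation regulator Cpeb1 (−4.53 ± 0.30), the let-7 inhibitor Lin28a (−4.42 ± 0.53) and Elavl2 (−4.32 ± 0.38) were among them. Boll and Zar1, which act later in germ cells, were not called (0.55 ± 0.26 and 0.43 ± 0.28), and Pum2 and Tial1, broadly expressed RNA-binding proteins, were at 0.032 ± 0.10 and −0.11 ± 0.10.

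Genes of meiotic entry fell as well. Stra8, the retinoic acid target that starts the meiotic programme, had 5.97, 5.94 and 6.16 in Wv/Wv against 11.75, 12.11 and 10.95 in wild type (−5.72 ± 0.50, limma adjusted p = 2.15e-08). Its 3 Wv/Wv arrays lay close together, without the higher array 1 seen for Dazl, and above the limit for low signal. Meioc, which with Ythdc2 extends meiotic prophase, had 3.45, 3.10 and 3.13 in Wv/Wv against 8.41, 9.71 and 8.83 in wild type, at least 12.1-fold lower (limma adjusted p = 1.01e-13). The RNA helicase Ythdc2 itself fell by less (−1.43 ± 0.22). Of 11 measured members 9 fell and 0 rose, with a median of −1.53. They included Tex14, of the intercellular bridges (−4.24 ± 0.30), the DM-domain factor Dmrt1 (−3.14 ± 0.51), Mei1 (−1.53 ± 0.32) and the BMP-dependent factor Zglp1 (−1.17 ± 0.27). The BMP targets Msx1 and Msx2 were not called (−0.28 ± 0.23 and −0.83 ± 0.31).

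**Figure D2:**
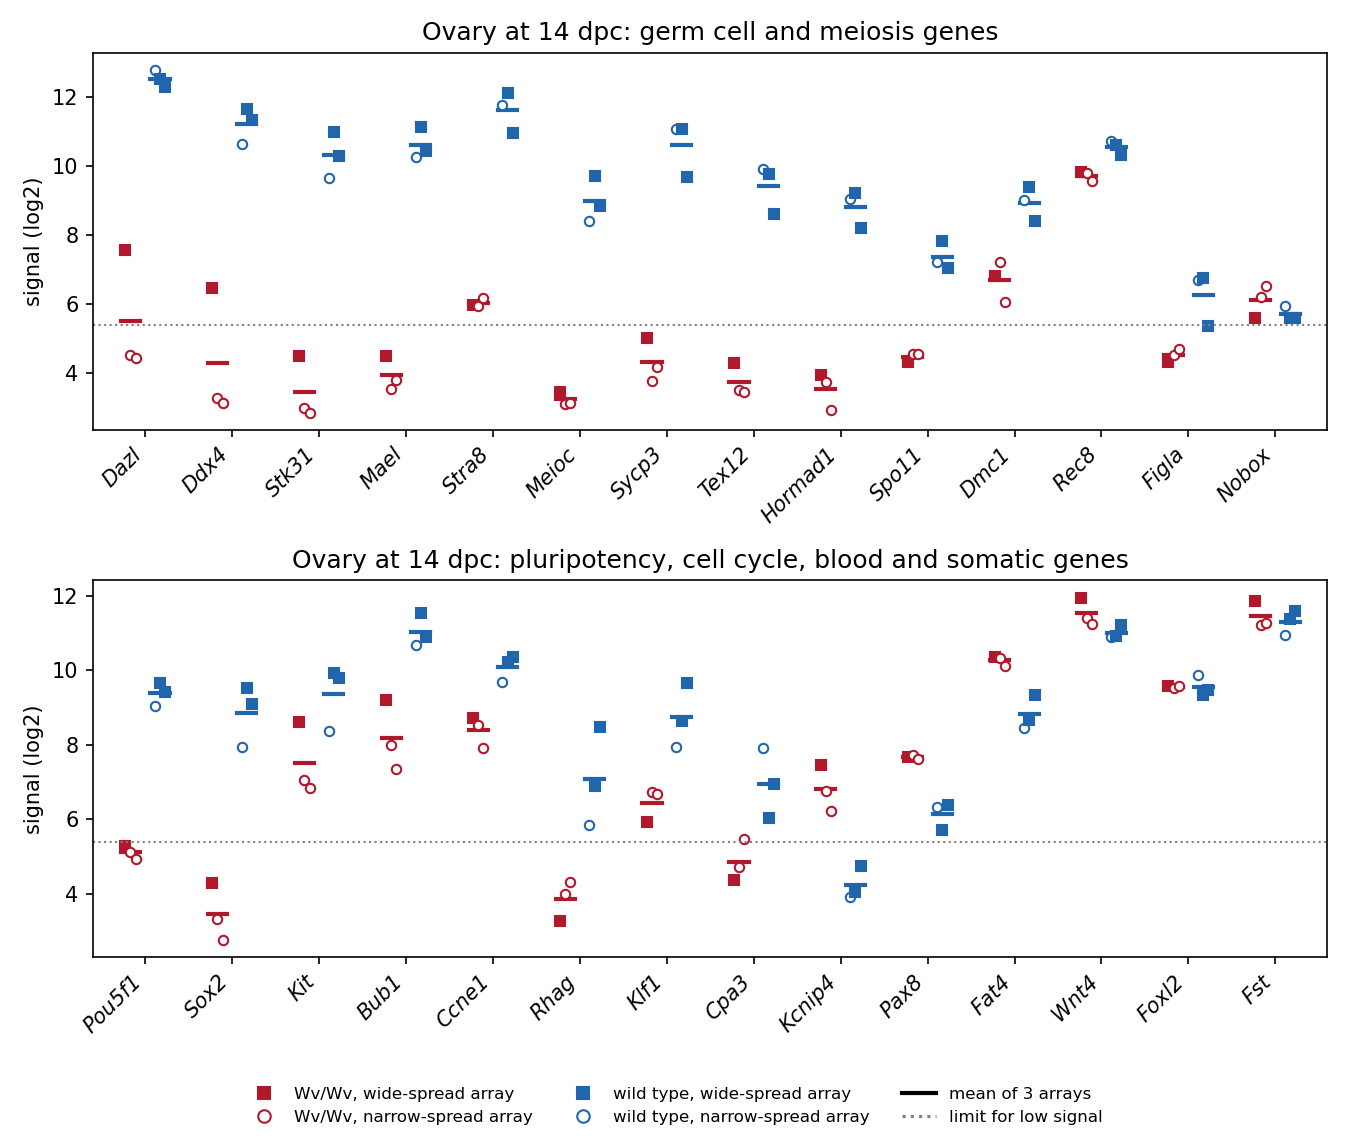
Log2 signal on each of the 6 arrays of ovaries at 14 dpc for 28 genes, Wv/Wv (red) left of wild type (blue), with the mean of 3 arrays as a line; squares are wide-spread and open circles narrow-spread arrays, and the dotted line is the limit for low signal, 5.39. Dazl, Ddx4 and Bub1 are highest on the wide-spread array among the 3 Wv/Wv arrays, Stra8 is level on the 3, and Foxl2 and Fst overlap between genotypes.

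Components of the chromosome axis and of the synaptonemal complex fell together. Sycp3 had 5.00, 3.77 and 4.18 in Wv/Wv against 11.05, 11.06 and 9.66 in wild type, at least 36.8-fold lower (limma adjusted p = 1.02e-10). Hormad1, an axis protein, had 3.94, 3.74 and 2.92 in Wv/Wv against 9.04, 9.20 and 8.20 in wild type, at least 10.7-fold lower. Wild-type array 3 was the lowest wild-type array for both genes, and for Stra8, Tex12 and Sycp1. Of 15 measured members 14 fell and 0 rose, with a median of −3.95. Among them were the central element proteins Tex12 (−5.67 ± 0.33), Syce1 (−4.87 ± 0.33), Syce3 (−3.21 ± 0.40) and Syce2 (−2.50 ± 0.18), the transverse filament Sycp1 (−4.39 ± 0.27), and the meiotic cohesins Smc1b (−4.86 ± 0.28) and Stag3 (−4.01 ± 0.31). Rec8, the meiotic kleisin, was an exception in size: it had 9.82, 9.79 and 9.54 in Wv/Wv against 10.71, 10.61 and 10.32 in wild type, and fell by only 0.80 ± 0.28 (limma adjusted p = 0.0428, 0.108 without the class term). Its signal stayed high in Wv/Wv ovaries. Of 10 mitotic cohesin genes 3 fell, and their median was −0.26. Esco2, which acetylates cohesin in S phase, fell by 3.53 ± 0.32, while Stag1 and Smc3 fell by less (−0.84 ± 0.14 and −0.81 ± 0.13), and Rad21 was at −0.18 ± 0.13.

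Recombination genes fell on a wider scale of sizes. Of 22 measured members 18 fell and 0 rose, with a median of −1.46. The genes of break formation were low in Wv/Wv ovaries: Spo11, the break-making enzyme, had 4.30, 4.55 and 4.55 in Wv/Wv against 7.21, 7.83 and 7.02 in wild type, at least 3.91-fold lower. Its partners Rec114 and Mei4 fell by 3.47 ± 0.32 and 3.41 ± 0.29. Tex11, an X-linked gene of crossover formation, fell by 3.98 ± 0.32. Dmc1, the meiotic strand-exchange recombinase, had 6.80, 7.20 and 6.06 in Wv/Wv against 9.01, 9.39 and 8.39 in wild type (−2.15 ± 0.25, limma adjusted p = 1.35e-06). Brca1 (−1.42 ± 0.14), Brca2 (−1.50 ± 0.18) and Exo1 (−1.27 ± 0.21), repair genes that somatic cells also use, fell by less than these but near the median of the list. Mnd1 (−1.53), Prdm9 (−1.17) and Psmc3ip (−0.98) fell by similar or smaller amounts and Mcm8 (−2.26) by more, while Msh5 (−0.35) was not called. Of 6 genes that attach telomeres to the nuclear envelope 5 fell, Spdya (−3.76 ± 0.32), Terb1 (−2.93 ± 0.30), Majin (−2.89 ± 0.23) and Terb2 (−2.27 ± 0.20) by more than the broadly expressed Sun1 (−0.48 ± 0.13), while Cdk2 was at 0.31 ± 0.20.

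Genes of the piRNA pathway, which silences transposons in germ cells, fell in 16 of 20 measured members, with 0 higher and a median of −1.87. Mael had 4.47, 3.53 and 3.78 in Wv/Wv against 10.26, 11.12 and 10.44 in wild type, at least 37.2-fold lower (limma adjusted p = 7.41e-13). Gpat2 had 5.18, 5.84 and 4.44 in Wv/Wv against 10.24, 10.45 and 9.33 in wild type. Tex19.1, Asz1 and Piwil2 differed by −4.88 ± 0.46, −4.77 ± 0.34 and −4.33 ± 0.34. Of the 16 members that fell, 10 were under the limit for low signal on all 3 Wv/Wv arrays, and array 1 was the highest Wv/Wv array for 5. Piwil1, Henmt1 and Tdrd1 read 4.62 to 5.48 on average in wild type, near or under the limit for low signal, and were not called.

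Pluripotency genes, which germ cells express until they enter meiosis, fell in 15 of 25 measured members, with 0 higher and a median of −1.33. Pou5f1 (Oct4) had 5.27, 5.11 and 4.94 in Wv/Wv against 9.05, 9.67 and 9.43 in wild type, at least 16-fold lower (limma adjusted p = 1.67e-06). Sox2 had 4.28, 3.31 and 2.75 in Wv/Wv against 7.95, 9.53 and 9.10 in wild type, at least 11.1-fold lower. Wild-type array 1 was the lowest wild-type array for both, and for Tfap2c and Prdm14. Nanog, the third of this core, read 3.89, 3.93 and 4.22 in Wv/Wv against only 5.61, 5.63 and 5.84 in wild type (−1.68 ± 0.22). Among primordial germ cell factors 11 of 16 fell and 0 rose, with a median of −1.60. The X-linked homeobox genes Rhox6 (−4.80 ± 0.52), Rhox5 (−4.49 ± 0.59) and Rhox9 (−4.41 ± 0.42) led them, and since the Rhox genes have close copies, probe sets may read more than 1 of them. Tfap2c (−3.77 ± 0.61) and Prdm14 (−2.54 ± 0.41), transcription factors of germ cell specification, also fell. Within the 3 wide-spread arrays the median difference was −1.72 over pluripotency and −1.91 over primordial germ cell genes. Within the 3 narrow-spread arrays it was smaller, −1.08 and −1.19.

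Of 19 oocyte genes 5 fell and 1 rose, against 14.7% and 5.88% of all genes, with a median of −0.12. Without the class term 3 were lower and 0 higher. Of the 19, 10 were under the limit for low signal on all 6 arrays. Sohlh2, a regulator of early oocytes, had 5.97, 5.66 and 5.89 in Wv/Wv against 9.52, 9.92 and 9.57 in wild type (−3.82 ± 0.34), and the transcription factor subunit Taf4b had 6.38, 5.55 and 6.53 in Wv/Wv against 9.36, 9.76 and 9.33 in wild type (−3.27 ± 0.26). Figla, which activates zona pellucida genes, had 4.30, 4.52 and 4.69 in Wv/Wv against 6.70, 6.73 and 5.34 in wild type (−1.83 ± 0.23). Nobox, a homeobox factor of oocytes, was not called (0.21 ± 0.13). Lhx8, called lower (−0.83 ± 0.19), and Oog3, the gene called higher, were under the limit on all 6 arrays. For Ooep, also called lower (−0.58 ± 0.19), the groups overlap.

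Cell cycle genes fell in most members of both lists, by less than the meiosis genes. Of 18 S phase genes 16 fell (median −0.79), and of 17 M phase genes 15 fell (median −0.83), with 0 higher in both. Bub1, a spindle checkpoint kinase, had 9.21, 8.00 and 7.35 in Wv/Wv against 10.67, 11.54 and 10.90 in wild type (−2.51 ± 0.19, limma adjusted p = 2.36e-09). Cyclin E1 (Ccne1), which drives entry into S phase, had 8.72, 8.54 and 7.90 in Wv/Wv against 9.68, 10.22 and 10.36 in wild type (−1.53 ± 0.21). The genotypes did not overlap for these 2 genes. Of the others, Ccne2 (−1.72 ± 0.19), Nek2 (−2.09 ± 0.20), Cenpf (−1.61 ± 0.15), Rfc4 (−1.65 ± 0.16) and Ccnb2 (−1.53 ± 0.19) fell by at least as much as Ccne1, and Mki67 and Pcna, used as proliferation markers, fell as well (−0.63 ± 0.16 and −0.79 ± 0.11). These genes follow the array class inside the genotypes as well: array 1 was the highest Wv/Wv array for 15 of the 16 S phase genes and 13 of the 15 M phase genes. Without the class term 5 S phase and 7 M phase genes were lower, within the wide-spread arrays alone 11 and 12, and within the narrow-spread arrays alone 3 and 3.

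The genes of the somatic ovary that were called changed by less than most germ cell genes. Of 20 pregranulosa genes 1 fell and 4 rose, against 5.88% of all genes higher, with a median of 0.15. Foxl2 was at −0.10 ± 0.21 (limma adjusted p = 0.79), Fst at 0.29 ± 0.23, Bmp2 at 0.05 ± 0.28 and Rspo1 at −0.49 ± 0.19, and none was called. Wnt4, which the ovarian pathway needs, rose, with 11.95, 11.42 and 11.24 in Wv/Wv against 10.90, 10.92 and 11.22 in wild type (0.69 ± 0.21, limma adjusted p = 0.0241, 0.514 without the class term). The Wv/Wv arrays lay just above the wild-type arrays. The Wnt receptor Fzd1 (0.72 ± 0.19), Dab2 (0.68 ± 0.15) and Wnt5a (0.48 ± 0.14) also rose, and the Wnt target receptor Lgr5 fell (−0.71 ± 0.22), a call that was lost without the class term and under the other scalings. Of 12 early gonad factors 3 rose and 2 fell, against 5.88% and 14.7% of all genes. Zfpm2, Wt1 and Emx2 rose by 0.39 to 0.55, and Nr5a1 was at 0.33 ± 0.31. Lhx2 and Six4 fell (−1.33 and −1.06). Lhx2 was mostly under the limit for low signal, with 3.79, 3.81 and 4.17 in Wv/Wv against 5.49, 4.85 and 5.17 in wild type. No pregranulosa gene and no early gonad factor was called higher without the class term.

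Of 13 stroma genes 4 rose and 0 fell, with a median of 0.48. Col1a1 had 10.90, 12.75 and 12.12 in Wv/Wv against 11.72, 9.30 and 10.14 in wild type (0.94 ± 0.28), and Postn, a matrix protein, 10.38, 10.29 and 8.97 in Wv/Wv against 9.14, 8.94 and 8.72 in wild type (0.95 ± 0.30). For both genes the groups overlap. Without the class term 0 stroma genes were higher, and 0 without Wv/Wv array 1. Of 19 BMP and Wnt response genes Bmp4, Bmp5 and Nkd1 rose and Lgr5 fell (1.05 ± 0.30 for Bmp4 and 1.03 ± 0.26 for Bmp5). No BMP and Wnt response gene was called without the class term, or on the wide-spread or narrow-spread arrays alone. Of 14 retinoic acid genes Aldh1a3 and Dhrs3 were called higher, neither of them without the class term. The retinol carrier Rbp4 had 5.42, 6.11 and 6.24 in Wv/Wv against 6.55, 7.55 and 10.41 in wild type (−1.99 ± 0.58), with wild-type array 3 far above the others. Its difference was −3.57 on the wide-spread and −0.37 on the narrow-spread arrays, and the call was lost without wild-type array 3 or without Wv/Wv array 1. Aldh1a2 and Cyp26b1, which make and degrade retinoic acid in the fetal gonad, were at 0.34 ± 0.22 and −0.077 ± 0.26. Of 7 steroidogenesis and 5 adrenal genes Fdx1 was the only one called (lower). Of 15 Notch pathway genes 3 fell (Hes5, Dll3 and Jag2) and Notch3 rose, shares near those of all genes (14.7% and 5.88%), and 0 were called without the class term. Of 19 genes of DNA methylation and germline gene repression 5 fell, among them Pcgf6 (−0.84 ± 0.15) and Dnmt1 (−0.65 ± 0.19), and Dnmt3a rose (0.66 ± 0.18), against 1 lower and 0 higher without the class term. Other lists held single calls: Lgr5 (lower) of 12 surface epithelium genes, Mylk (higher) of 8 smooth muscle genes, and Sox10 (higher), which stands among both 16 Sertoli and 8 neuron and glia genes, and none of these held without the class term. Of 17 p53 targets 0 rose and 2 fell (Mdm2, −0.71 ± 0.13, and Gadd45a, −0.90 ± 0.31), and 0 fell without the class term. The share that fell, 11.8%, was no higher than the 14.7% of all genes.

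Few rises were large. Kcnip4, a potassium channel-interacting protein, had 7.45, 6.75 and 6.22 in Wv/Wv against 3.92, 4.04 and 4.74 in wild type, which was under the limit for low signal on all 3 wild-type arrays, and was at least 2.68-fold higher (limma adjusted p = 1.07e-08, 1.29e-06 without the class term). Pax8, a transcription factor of the mesonephric tubules, had 7.68, 7.71 and 7.61 in Wv/Wv against 6.34, 5.70 and 6.39 in wild type (1.48 ± 0.22), and the atypical cadherin Fat4 10.36, 10.34 and 10.10 in Wv/Wv against 8.44, 8.66 and 9.35 in wild type (1.46 ± 0.25). Both genotypes were clearly apart for these 3 genes. Of 12 mesonephros and tubule genes 3 rose (Pax8, Calb1 and Epcam) and 2 fell (Cubn and Wfdc2), against 5.88% and 14.7% of all genes. Without the class term 2 were higher and 1 lower. The direction of Epcam is unsettled: the probe set used rose by 0.55 and another was called lower, by 2.02. Lhx1, Gata3 and Ret, further markers of the duct and tubules, were at 4.86 to 5.93 on average in Wv/Wv and 4.89 to 5.81 in wild type, and the part of adjoining mesonephros in these rises was not tested. The other genes of the 15 largest rises were Fat3 (1.40), Scara3 (1.35), Rmst (1.31), Gm3515 (1.29), Adamts19 (1.24), Bche (1.24), Ecm1 (1.13), Npas3 (1.12), 2310067E19Rik (1.10), the oestrogen-response gene Greb1 (1.09) and Slc35f1 (1.08). Without the class term the adjusted p stayed below 0.05 for Kcnip4, Pax8, Fat4, Calb1, Bche, Gm3515, Npas3 and Slc35f1, and was 0.174 for Rmst, 0.192 for Greb1 and 0.16 for Adamts19.

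Blood transcripts also differed. Of 15 erythroid genes 10 fell and 0 rose, with a median of −1.46. Rhag, of the red cell Rh complex, had 3.26, 3.99 and 4.32 in Wv/Wv against 5.84, 6.89 and 8.48 in wild type (−3.19 ± 0.57, limma adjusted p = 0.000279). Klf1, the erythroid transcription factor, had 5.93, 6.73 and 6.68 in Wv/Wv against 7.94, 8.65 and 9.67 in wild type (−2.34 ± 0.45). Wild-type array 3 was the highest wild-type array for all 10 genes that fell, and the list's median was 6.61, 6.64 and 6.68 on the Wv/Wv arrays against 6.98, 8.08 and 9.25 on the wild-type arrays. Without wild-type array 3 there were 4 erythroid genes lower, and 5 without Wv/Wv array 1, while the narrow-spread arrays alone gave 0. The embryonic globins Hbb-y and Hba-x were at 0.33 ± 0.70 and 0.28 ± 0.56, and globin probe sets may read several close copies. Of 11 mast cell genes 2 were called lower (18.2%), a share near the 14.7% of all genes, and 1 without the class term. Among these 11 genes the protease Cpa3 fell (4.37, 4.72 and 5.47 in Wv/Wv, 7.90, 6.03 and 6.94 in wild type, −2.29 ± 0.45), and 4 were under the limit on all 6 arrays. Cma1 was called lower as well, with 4.79, 5.23 and 6.30 in Wv/Wv against 7.76, 5.30 and 5.94 in wild type (−1.23 ± 0.43, limma adjusted p = 0.0459, 0.418 without the class term), and its groups overlap. Of 7 melanocyte genes Tyrp1 was called higher near the limit for low signal. Of 14 macrophage genes 2 fell (Lyz2 and Ptprc), and of 12 endothelial genes Tek fell and Robo4 rose, shares near those of all genes, and 0 of either list were called without the class term, nor was Tyrp1. The amount of blood in each ovary, and its part in the falls of proliferation genes, was not tested. Of 13 housekeeping genes only Hprt was called (10.08, 9.26 and 9.04 in Wv/Wv, 10.62, 11.21 and 10.91 in wild type, −1.21 ± 0.15).

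**Figure D3:**
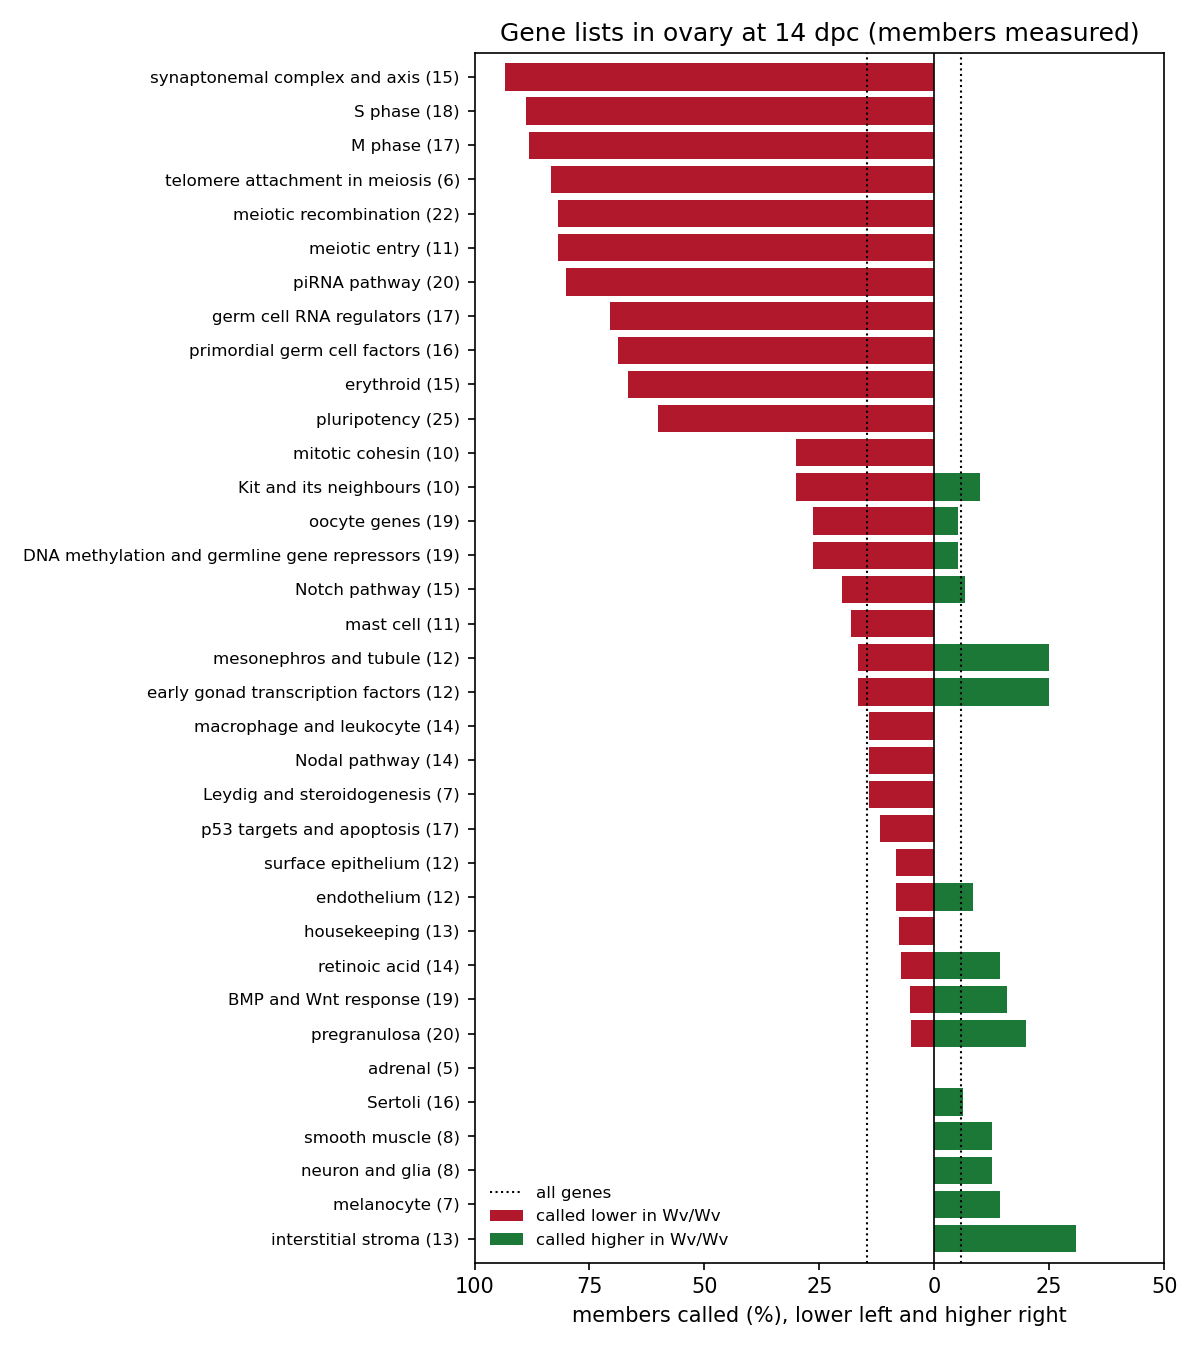
Share of the measured members of 35 gene lists called lower (red, to the left) or higher (green, to the right) in Wv/Wv ovaries at 14 dpc, in percent, with the number measured in brackets. The dotted lines give the shares of all 18194 genes, 14.7% lower and 5.88% higher; the synaptonemal complex list, the S phase and M phase lists and the other meiosis lists lie farthest to the left.

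Kit had 8.60, 7.05 and 6.83 in Wv/Wv against 8.37, 9.93 and 9.79 in wild type and fell by 1.37 ± 0.22 (limma adjusted p = 8.31e-05, 0.0491 without the class term). Wv/Wv array 1 lay above wild-type array 1, so that the groups overlap, but within each array class Wv/Wv was lower. Kitl, its ligand from somatic cells, was high in both genotypes and not called (13.06, 12.55 and 12.68 in Wv/Wv, 12.32, 12.47 and 12.64 in wild type, 0.40 ± 0.21). Of the other genes near Kit, Clock and Chic2 fell (−0.77 ± 0.14 and −0.66 ± 0.13), Pdgfra rose (0.51 ± 0.12), and Kdr, Srd5a3 and Fip1l1 were not called. Without the class term Kit alone of these genes was called.

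The Wv/Wv arrays were not alike in what remained of the germ cell transcripts. Array 1 was the highest Wv/Wv array for 49 of the 81 genes lower by at least 3, for 8 of 12 germ cell RNA regulators and for 10 of 14 axis and synaptonemal complex genes that fell. It was the highest for 6 of 9 meiotic entry, 10 of 18 recombination, 7 of 15 pluripotency and 5 of 16 piRNA genes that fell, and for 15 of 16 S phase genes. The share over all genes was not counted, and 46 of the 81 genes were under the limit for low signal on all 3 Wv/Wv arrays. The excess of array 1 over the mean of arrays 2 and 3 was 3.07 for Dazl, 3.26 for Ddx4 and 2.46 for Esco2, but −0.081 for Stra8 and −0.26 for Spo11. In wild type the wide-spread arrays differed from the narrow-spread array by −0.38 for Dazl, 0.86 for Ddx4 and 0.60 for Esco2. Array 1 is the only wide-spread Wv/Wv array of this age, so the embryo and the array class cannot be told apart in these excesses.

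The difference at 14 dpc was then set against that at 12 dpc, where there were 2 arrays per genotype, all wide-spread. At 12 dpc 34 genes were lower (0.187%) and 0 higher, and 33 of the 34 were also lower at 14 dpc, which are 97.1% of the first and 1.23% of the second list. The difference itself was called for 498 genes, 449 more negative at 14 dpc and 49 more positive (2.47% and 0.269% of all genes). The 5 most negative were Stra8 (−5.84 ± 0.77), Meioc (−5.78 ± 0.35), the ceramide galactosyltransferase Ugt8a (−5.58 ± 0.52), the blood gene Hemgn (−5.51 ± 1.20) and Tex12 (−5.48 ± 0.52). In wild-type ovaries Stra8 averaged 5.24 at 12 dpc, 11.60 at 14 dpc and 9.86 at 16 dpc, and Meioc 2.96, 8.98 and 8.63. Wild-type Stra8 and Meioc were thus lowest at 12 dpc, both under the limit for low signal. Of the axis and synaptonemal complex list 12 of 15 differed from 12 dpc, of the recombination list 14 of 22, of the telomere list 4 of 6, and of the pluripotency list 0 of 25. Sox2 and Pou5f1 were already lower at 12 dpc (−4.32 and −3.21), and Dazl (−1.76 ± 0.80, limma adjusted p = 0.305) did not pass the test of a difference from 12 dpc. The most positive were Kcnip4 (2.68 ± 0.36), Bche (1.50 ± 0.23), Pcdh20 (1.50 ± 0.39), Sprr2d (1.39 ± 0.37) and Hoxd10 (1.31 ± 0.31), of which Sprr2d and Hoxd10 were not called at 14 dpc.

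Against 16 dpc 0 genes passed the test of the difference by limma, with 1903 genes at an unadjusted p below 0.05 and a smallest adjusted p of 0.0638. All 3 wild-type arrays of 16 dpc were narrow-spread, against 1 of 3 Wv/Wv arrays. The test called 357 genes without wild-type array 2 of 16 dpc and 114 without Wv/Wv array 1 of 14 dpc. At 16 dpc 1629 genes were lower (8.95%) and 1375 higher (7.56%). Of the lower genes 1281 were lower at both ages, 47.9% of those of 14 dpc and 78.6% of those of 16 dpc, and of the higher genes 393, which are 36.8% and 28.6%, while 8 genes were called in opposite directions. Pluripotency genes were lower in 15 of 25 at 14 dpc and in 4 at 16 dpc, though the test of the difference called none of them. Wild-type Pou5f1 averaged 9.38 at 14 dpc and 6.50 at 16 dpc, and Sox2 8.86 and 4.96, lower at the later age. The genotype difference of Pou5f1 was −4.25 at 14 dpc and −1.53 at 16 dpc (limma adjusted p of the difference = 0.244), and that of Meioc −5.69 and −5.57.

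In testes of the same age, with 2 Wv/Wv and 3 wild-type arrays, Dazl, Pou5f1 and Sox2 fell as well, while Stra8 and Meioc were near 0. All wild-type testis arrays of this age were wide-spread, while Wv/Wv testis array 1 was wide-spread and array 2 narrow-spread. In testes 169 genes were lower (0.929%) and 3 higher (0.0165%), and 132 of the 169 were also lower in ovaries (78.1% of the testis list and 4.94% of the ovary list). The difference between ovary and testis was called for 351 genes, 319 more negative in ovaries and 32 more positive (1.75% and 0.176%). Stra8 (−5.51 ± 0.73), Meioc (−5.20 ± 0.33), 1700013H16Rik (−4.69 ± 0.32), the germ cell surface protein gene Tex101 (−4.42 ± 0.63) and Rhox6 (−4.21 ± 0.76) were the most negative. The most positive were genes that fell in Wv/Wv testes and were low in ovaries of both genotypes, at most 5.41 for Hesx1, at most 6.16 for Nodal and under the limit for low signal for the other 3: Pmaip1 (4.49 ± 0.47), the Y-linked Uba1y (3.87 ± 0.66), the homeobox genes Otx2 (3.19 ± 0.23) and Hesx1 (2.46 ± 0.36), and the growth factor Nodal (2.38 ± 0.23). In ovaries 2 of 14 Nodal pathway genes were called lower, a share near the 14.7% of all genes, and 0 without the class term. Nodal itself was at 0.11 ± 0.15. The genotype difference of Dazl was −6.66 in ovaries and −6.33 in testes, and the difference between them, −0.34 ± 0.76, did not pass the test. Nor did those of Pou5f1 and Sox2, −0.14 ± 0.72 and −0.42 ± 1.07. Of the S phase list 5 of 18 and of the M phase list 5 of 17 differed from the testis, where 0 and 1 were lower. Bub1 was at −0.60 in testes and differed by −1.91 ± 0.28 (limma adjusted p = 0.000361).

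**Figure D4:**
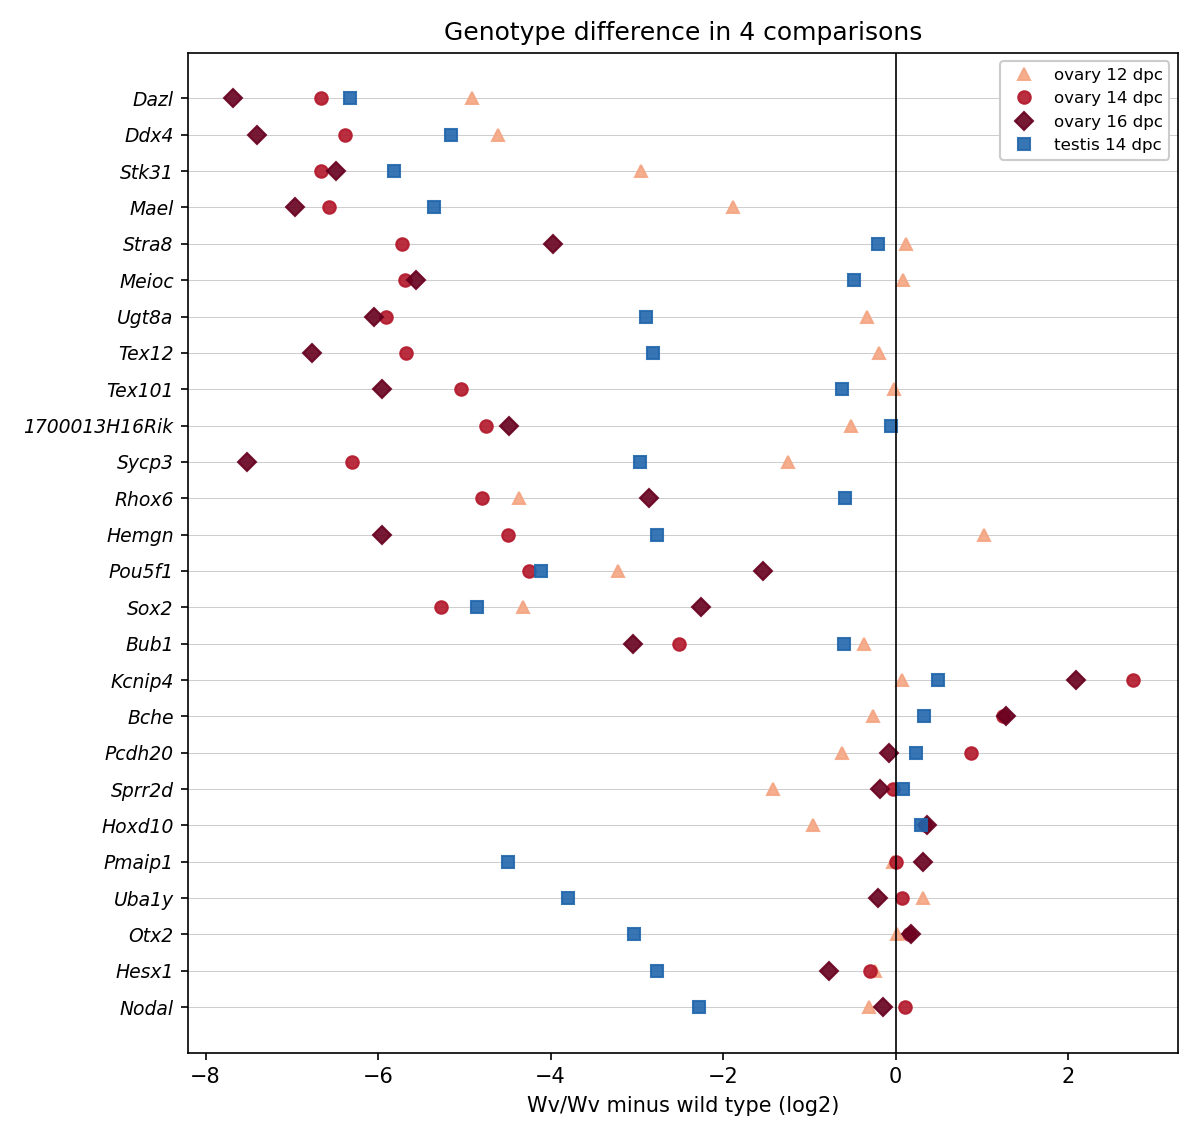
Wv/Wv minus wild type, in log2 units, for 26 genes, in ovaries of 3 ages (12, 14 and 16 dpc) and testes of 14 dpc, from the class-adjusted fit. Stra8 and Meioc are near 0 in ovaries at 12 dpc and in testes and below −5 in ovaries at 14 dpc, Dazl and Sox2 are below −4 at 12 and 14 dpc and in testes, and Otx2 and Nodal are below −2 in testes and near 0 in ovaries.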

How the data were processed

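The authors deposited log2 expression values made by RMA, per the submitters' processing notes, which give no version, and its settings were not given in the sources used here. RMA's shared normalization can shift genes where arrays differ in spread, as they did here. Of 45101 probe sets 34958 had 1 gene symbol, 932 several and 9211 were not listed in the platform annotation; 1 probe set stood for each of 18194 genes, that of the highest average on the 31 arrays. limma 3.58.1 in R 4.3.3 was fitted to 30 arrays with 12 group means and the array class (wide-spread or narrow-spread), with 17 residual degrees of freedom, and adjusted p-values are Benjamini-Hochberg over all genes. Wild-type testis array 1 of 16 dpc was left out for its small spread. The limit for low signal, 5.39, is the 40th percentile of all values; "at least N-fold" sets lower values to it. Nothing in the labels says that replicate numbers pair the samples. Deviations of same-numbered arrays correlated at −0.82, −0.59 and −0.53, but each such pair joins a wide-spread with a narrow-spread array, so this check does not bear on pairing, and no block was used. No 2 arrays of a group held the same values (smallest SD of a difference 0.18 over 27 pairs). The number of arrays limits the precision. Tested on simulated data for this comparison over 18194 genes, the fit recovered 85 of 100 genes changed by 1 and 100 of 100 changed by 2 on the log2 scale, with 5 false calls. Whether these counts hold for the measured arrays, whose deviations were correlated as given above, was not tested. Figures used Python 3.11.15 and matplotlib 3.10.9.

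Genes were named by rule: the 15 largest falls and rises among called genes whose arrays did not overlap, up to 6 called members of each list, a fixed set of germ cell, ovary and Kit genes, and the 5 largest in each direction in the tests between effects; further list members were named after their values were seen. The members and lists were chosen with earlier results of these data known. Alternatives changed the class term, scaling, filter, arrays and probe sets.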

Additional observations from a re-analysis of the deposited data

Results flagged for a closer look

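The genotype effect differed between ovaries at 14 dpc and at 12 dpc for 498 genes by limma's test of the difference. The 5 most negative were Stra8 (−5.84), Meioc (−5.78), Ugt8a (−5.58), Hemgn (−5.51, adjusted p = 0.0123) and Tex12 (−5.48), all lower in Wv/Wv at 14 dpc. The 5 most positive were Kcnip4 (2.68), Bche (1.50), Pcdh20 (1.50, adjusted p = 0.0406), Sprr2d (1.39, adjusted p = 0.0443) and Hoxd10 (1.31, adjusted p = 0.0216). For Sprr2d and Hoxd10 the genotype difference was −0.028 and 0.35 at 14 dpc, against −1.42 and −0.96 at 12 dpc.

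The genotype effect differed between ovary and testis at 14 dpc for 351 genes by the same kind of test. The most negative were Stra8 (−5.51), Meioc (−5.20), 1700013H16Rik (−4.69), Tex101 (−4.42) and Rhox6 (−4.21, adjusted p = 0.00356). The most positive were Pmaip1 (4.49), Uba1y (3.87), Otx2 (3.19), Hesx1 (2.46) and Nodal (2.38). No group reached the 4 samples needed to search single genes for outlying samples. The 1 array left out of the fit was left out for its spread over all probe sets.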

How the results depend on the processing

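Of 147 named genes called, 52 kept the call in every setting and 146 kept their sign in all of them; Oog3 alone changed sign, with −0.039 on the wide-spread arrays alone. Of 3647 recomputed values of named genes 3090 kept their side of the threshold, 552 lost the call and 4 gained it. The 3090 include changes of sign in genes called in neither fit. Foxl2, for example, was at −0.099 in the main fit and 0.18 on the wide-spread arrays. The 2674 genes called lower became 742 without the class term, 1383 on wide-spread and 348 on narrow-spread arrays alone, 1462 with the left-out testis array kept, 1431 with only the arrays compared and 725 at a difference of at least 1. The 1069 genes called higher became 53, 660, 23, 400, 287 and 41 in the same settings, 2135 with cyclic loess, 2411 with quantile normalization, 3273 centred on housekeeping genes and 554 with ovary arrays only. Leaving out 1 array gave 1657 to 2796 lower and 512 to 1084 higher. It was 1657 and 512 without wild-type array 1, and 583 higher without wild-type array 2. These numbers are counts, and the genes behind them changed too. Without Wv/Wv array 1, 556 of the 1012 higher and 2418 of the 2796 lower genes were shared with the main fit. With cyclic loess it was 1034 of the 2135 higher and 2338 of the 2420 lower genes. In both settings 0 genes were called in opposite directions. The 498 genes that differed from 12 dpc became 81 without the class term, 209 with the left-out array kept, 756 with cyclic loess, 955 with array weights, 157 with ovary arrays only and 139 with only the arrays compared, and 178 to 667 without 1 array (lowest without Wv/Wv array 2 of 12 dpc). The 0 that differed from 16 dpc became 1 with quantile normalization, 2 with array weights, 5 with every probe set tested, 1 with the replicate block, and 0 to 357 without 1 array. The 351 that differed from the testis became 50 without the class term, 94 on wide-spread arrays alone, 180 with the left-out array kept, 1006 with array weights and 113 to 750 without 1 array (113 without Wv/Wv testis array 2, 750 without Wv/Wv ovary array 1). With the replicate number as a block, whose pairing of samples neither the labels nor the values settle, 2564 were lower and 1004 higher, and 457 and 281 differed from 12 dpc and from the testis. Fits to wide-spread or narrow-spread arrays alone used all arrays of that class in the fit, not only those of ovaries at 14 dpc. Each left 1 array in 1 of the 2 genotypes compared. Wide-spread arrays alone could not be fitted for 16 dpc, narrow-spread arrays alone for 12 dpc and the testis, and ovary arrays alone for the testis. The causes of these changes were not tested beyond the smaller number of arrays. Low signal limits the size of falls: of the 81 genes lower by at least 3, 46 were under the limit on all 3 Wv/Wv arrays.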

Other observations

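The X chromosome held the largest share of genes called lower: 119 of 617 (19.3%), against 10.4% to 16.6% on the autosomes. The choice of the X was made after these shares were seen, and no test was run.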
